A study of Mus musculus with 5 samples.

Results

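The BCL2 family genes described here are 10 genes that decide whether mitochondria release the proteins that start cell death, namely Bcl2, Bcl2l1, Mcl1, Bax, Bak1, Bcl2l11, Bid, Bad, Bbc3 and Pmaip1. Each was taken by its symbol from a deposited table of 25549 gene models, and all 10 were found, once each. Total RNA came from cultured mast cells, grown out of the bone marrow of C57BL/6 mice for 6 to 8 weeks in medium with interleukin-3 at 50 ng/mL. The altered genotype was Cpa3-Cre;miR-9∆fl/∆fl, from now on the miR-9 line (n = 3 samples), and the control was Cpa3-Cre (n = 2 samples). Both carry Cre recombinase from the promoter of Cpa3, the mast cell carboxypeptidase gene. Sexes and ages were matched per the labels, which give neither the ages nor which mouse or culture a sample came from. The cells were not treated. Replicates of a genotype may thus be repeats of one culture, and the p-values cover only the variation among these 5 samples.

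Every fold change is the authors' deposited value, positive where the miR-9 line is higher, and every adjusted p was computed here from their p-values by Benjamini-Hochberg over all 24071 rows that have one. The columns of values per library carry names that match no sample's labels, so levels per sample, depth per gene and overlap between groups were not analysed here. The authors' deposited table puts Gm25641, a gene model on the strand opposite the Mir9-1 hairpin, at a log2 value of 4.50 (adjusted p = 8.74e-18). Whether this model marks the altered locus was not tested. The labels do not say whether the allele raises or removes miR-9. Of 11 mast cell marker genes, 11 had a p-value in the table the authors deposited, with 9 higher and a median of 0.10. Among them the tryptase gene Tpsb2 was called (log2 value 1.60, adjusted p = 0.0149). The chymase gene Cma1, with a log2 value of 0.97 (adjusted p = 0.442), was not. A p-value was present for 0 of 9 neutrophil markers and 0 of the 6 monocyte and macrophage markers with a row, while 5.78% of all rows had none. Of 5 erythroid markers 3 were higher (median 0.82), with the smallest p-values for Hbb-bs, at 1.09 (p = 0.0405), and Klf1, at 0.94 (p = 0.0769), in the authors' deposited table. Of 5 lymphocyte markers with a p-value 5 were lower (median -0.53), led in p by Cd3e, at -0.53 (p = 0.183), and Cd4, at -0.67 (p = 0.212), in the authors' deposited table. Of 3 basophil markers with a p-value 2 were lower (median -0.36), Il4 at -0.50 (p = 0.0921) and Itga2 at -0.36 (p = 0.444) in the authors' deposited table. Cebpa was higher, at 0.26 (p = 0.625), in the authors' deposited table. The basophil markers Mcpt8, at 0.13, and Prss34, at 0.52, were also higher there but had no p-value. None of the erythroid, lymphocyte or basophil markers was called, where 0.411% of all rows with a p-value were called. The part of these cells, or of neutrophils, monocytes and macrophages, in the values of the family was not tested. The levels behind the markers were not used, so they do not check the cell type.

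Proteins of the BCL2 family meet at the outer membrane of mitochondria. The pro-survival members BCL2, BCL-XL (from Bcl2l1) and MCL1 hold the effectors BAX and BAK in check. The BH3-only members BIM (from Bcl2l11), BID, BAD, PUMA (from Bbc3) and NOXA (from Pmaip1) sense damage or loss of growth signals and bind the pro-survival proteins, and some of them also activate the effectors. Once active, BAX and BAK open the membrane, cytochrome c escapes, and APAF1 and the caspases take the cell apart. In mouse mast cells, BIM and PUMA are known for their part in the death that follows withdrawal of cytokine.

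The microRNA named in the genotype gives 2 mature strands, identical at its 3 loci Mir9-1, Mir9-2 and Mir9-3, and the bases that pair with messenger RNA first, the seed (bases 2 to 8), are in capitals. The sequences are from RefSeq (GRCm38.p6), 5′ to 3′.
miR-9-5p: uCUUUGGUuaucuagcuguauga
miR-9-3p: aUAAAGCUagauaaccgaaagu

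The longest annotated 3' untranslated region of each of the 10 genes (GENCODE M21, GRCm38) was searched on the transcript strand for the reverse complement of these seeds, ACCAAAG for miR-9-5p and AGCTTTA for miR-9-3p. A match was present in 4 of the 10 genes, Bad, Bcl2, Bcl2l11 and Pmaip1, with 7 matches in all, and 6 genes had neither. The 5 matches of Bad, Bcl2l11 and Bcl2 are printed in capitals, each with 14 bases before it and 1 after, so that the pairing can be read against the seeds (GENCODE M21 transcripts, GRCm38).
Bad, miR-9-5p, chr19:6951123-6951144, plus strand: cagaccaacttcacACCAAAGt
Bcl2l11, miR-9-5p, chr2:128160361-128160382, plus strand: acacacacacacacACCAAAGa
Bcl2l11, miR-9-3p, chr2:128159947-128159968, plus strand: cagcttgctcaggaAGCTTTAt
Bcl2, miR-9-3p, chr1:106541982-106542003, minus strand: aagaagcccggcggAGCTTTAg
Bcl2, miR-9-3p, chr1:106541345-106541366, minus strand: gaaaaggtgggaacAGCTTTAg

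Of these 5 printed sites, the miR-9-5p match of Bcl2l11 alone is followed by an A, the base opposite the first base of the microRNA. That match lies 2046 bases into an untranslated region of 4218 bases, behind a run of CA repeats, and 2 of 5 annotated Bcl2l11 transcripts with a 3' untranslated region hold it. The Bad match is in 2 of 8 such transcripts, and both Bcl2 matches are in 1 of 2. Pmaip1 holds 1 match to each seed in 2 of 3 transcripts. All 7 matches fall in exons of the deposited gene models. The untranslated regions of 8 members are over 1000 bases long and hold all 7 matches. A miR-9-5p match occurs in 3 of these 8, against 21.5% of the 8637 genes of the table with a region of that length. A miR-9-3p match also occurs in 3 of the 8, against 20.02% of the same genes. These matches describe sequence and do not show that miR-9 binds there.

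In the miR-9 line, 0 of the 8 BCL2 family genes with a p-value were called at the threshold of 0.05 for the adjusted p, where 0.411% of the 24071 rows with one were called. The other 2, Bcl2l11 and Pmaip1, have no p-value and could not be called. At an unadjusted p under 0.05, 1 of the 8 passed, the BH3-only gene Bbc3, against 7.92% of all rows, and no other test was run on these data here. In bulk RNA, fewer cells that express a gene and less RNA of it per cell cannot be told apart. By value, 7 members were lower, Bcl2l11 and Pmaip1 among them, and 3 higher in the miR-9 line. The 3 higher ones were the effector gene Bak1 and the BH3-only genes Bid and Bad. All 10 lay within a log2 fold change of 1 of no change, as did 95.7% of all rows with a p-value. The 8 members with a p-value had a median log2 fold change of -0.13, and the median over all rows tested was -0.09, with 59.8% of them negative.

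The file gives no standard error, so one was derived for each member as the size of its log2 fold change over the normal quantile of its p-value. This holds only if the p is from a two-sided Wald test of that fold change, which is DESeq2's default and is not stated by the labels. The errors so derived ran from 0.23 to 0.37 for the 8 members, on the log2 scale. The 95% intervals rest on them. The labels do not state whether the log2 values were shrunken toward 0. If they were, the fold changes and intervals given here are those of shrunken values.

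Among the pro-survival genes, all 3 had negative values and none passed the test. Mcl1, whose short-lived product is rebuilt constantly, had a log2 value of -0.46 in the authors' deposited table, or 1.37-fold lower in the miR-9 line (p = 0.213, adjusted p = 0.831). Mcl1 lies on chromosome 3, 95658721 to 95663176 (GRCm38), plus strand, in 3 exon blocks of the deposited gene model. The implied interval of Mcl1 ran from -1.17 to 0.26, so both a fall of more than 2-fold and a small rise lie inside it. Bcl2, the founding survival gene of the family, was at -0.41 in the authors' deposited table (1.33-fold lower, p = 0.255, adjusted p = 0.848), with an interval of -1.12 to 0.30. The Bcl2 model spans 106538178 to 106714274 on chromosome 1, minus strand, with 2 exon blocks. Bcl2l1, which encodes BCL-XL, was nearest to no change among them at -0.13 in the authors' deposited table (1.10-fold lower, p = 0.611, adjusted p = 0.948). The interval of Bcl2l1, -0.64 to 0.37, lies wholly within a 2-fold change either way. The Bcl2l1 model spans 152780668 to 152831728 on chromosome 2, minus strand, with 5 exon blocks. Bcl2l1 and Mcl1 differed by 0.33 in log2 fold change, a difference that was not tested.

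**Figure D1:**
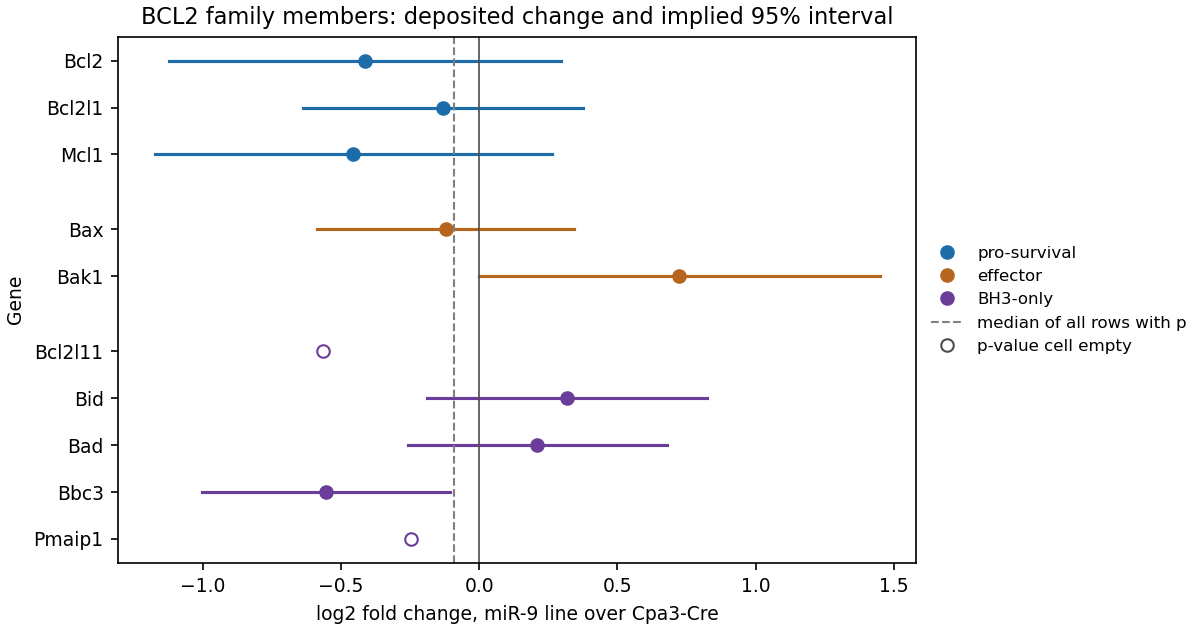
Log2 fold change of each BCL2 family gene in the miR-9 line over Cpa3-Cre (x axis) by gene (y axis), with points for the authors' deposited values, bars for the implied 95% intervals, colours for the role, open points for genes whose p-value cell is empty and a dashed line at the median of all rows with a p-value, -0.09. The bar of Bbc3 (-1.004 to -0.10) alone lies on one side of 0, and that of Bak1 begins just below it.

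The effector genes did not share a direction. Bak1, which encodes BAK, a resident of the mitochondrial membrane, had a log2 value of 0.72 in the authors' deposited table, so was 1.65-fold above the control, the highest value of the 10 genes. Bak1 lies on chromosome 17, 27019810 to 27029009, minus strand, in 7 exon blocks. The p of Bak1 was 0.0508 in the authors' deposited table and its adjusted p 0.635, so it passed neither threshold. The implied interval of Bak1 ran from -0.0024 to 1.45, and 97.2% of all rows with a p-value had a lower value. Bax, whose product moves to mitochondria when activated, was at -0.12 in the authors' deposited table (1.09-fold lower, p = 0.609, adjusted p = 0.948). The Bax model spans 45461695 to 45466898 on chromosome 7, minus strand, with 6 exon blocks. The interval of Bax, -0.59 to 0.34, holds no 2-fold change in either direction. Bak1 stood above Bax by 0.84 in log2 fold change, a difference for which no test could be made without values per library. Bak1 shares 357 of its 2407 exonic bases with Ggnbp1 on the opposite strand, and Ggnbp1 was at -0.07 in the authors' deposited table (p = 0.813).

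The BH3-only genes spread over both directions and included the member with the smallest p-value. Bbc3, which encodes PUMA, a target of p53 and of FOXO factors, had a log2 value of -0.55 in the authors' deposited table, or 1.47-fold lower in the miR-9 line. Bbc3 lies on chromosome 7, 16309616 to 16318205, plus strand, in 5 exon blocks. The p of Bbc3 was 0.0157 in the authors' deposited table, but the adjusted p was 0.424 and the gene was not called. The implied interval of Bbc3 ran from -1.004 to -0.10. It is 1 of the 975 genes, 4.05% of those tested, that were lower at an unadjusted p under 0.05. Bcl2l11, which encodes BIM, was at almost the same value, -0.56 in the authors' deposited table, or 1.48-fold lower, the lowest of the 10 genes. The Bcl2l11 model spans 128126038 to 128162547 on chromosome 2, plus strand, with 6 exon blocks. The p-value cell of Bcl2l11 is empty, so this value has no error and could not be tested.

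Pmaip1, which encodes NOXA, a partner and antagonist of MCL1, was at -0.24 in the authors' deposited table (1.19-fold lower), also with no p-value. Pmaip1 lies on chromosome 18, 66458604 to 66465550, plus strand, in 3 exon blocks. Rows without a p-value were 5.78% of the table, 1478 of 25549, and not all of them were near 0: 226 were at least as far from no change as Bcl2l11, and 642 at least as far as Pmaip1. The labels do not say why a row lacks a p-value. Whether the values of Bcl2l11 and Pmaip1 rest on an outlying library was not tested, as values per library were not used. Of the 3 members with a match to a miR-9-5p seed, Bcl2l11 and Pmaip1 had negative values and Bad a positive one. The 3 members with a miR-9-3p match, Bcl2, Bcl2l11 and Pmaip1, all had negative values, as did 59.8% of all rows with a p-value. Bcl2l11 and Pmaip1 are in both sets and lack a p-value, and no test was made over these members.

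Bid and Bad were the BH3-only members with positive values. Bid, which caspase-8 cleaves to link death receptors to mitochondria, was at 0.32 in the authors' deposited table (1.25-fold higher, p = 0.218, adjusted p = 0.833), with an interval of -0.19 to 0.82. Bid lies on chromosome 6, 120891930 to 120916853, minus strand, in 9 exon blocks. Bad, which survival kinases phosphorylate and keep inactive, was at 0.21 in the authors' deposited table (1.16-fold higher, p = 0.380, adjusted p = 0.898), with an interval of -0.26 to 0.68. The Bad model spans 6941861 to 6951898 on chromosome 19, plus strand, with 6 exon blocks. The intervals of Bid and Bad lie within a 2-fold change either way, as do those of Bcl2l1 and Bax, while the intervals of the other 4 members reach past 2-fold on one side. Bid shares 628 of its 3550 exonic bases with its neighbour Bcl2l13 and Bad shares 517 of its 2007 with Gpr137, each on the opposite strand. The libraries were strand-marked, but the labels do not say that strand was used in counting, so the reads of these overlaps may be split between the genes. Bcl2 likewise shares 558 of its 7191 exonic bases with D630008O14Rik on the opposite strand, at -0.27 in the authors' deposited table.

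**Figure D2:**
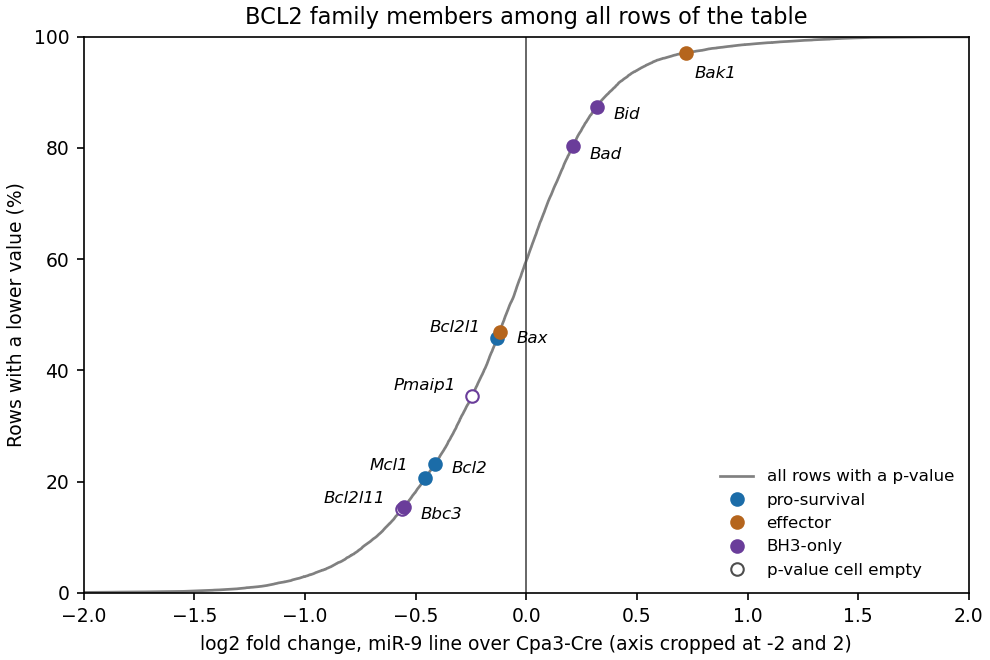
Share of all rows with a p-value that have a lower value (y axis, percent) at each log2 fold change in the miR-9 line over Cpa3-Cre (x axis), drawn as a grey curve with the BCL2 family genes placed on it by role. Bak1 sits highest, above 97.2% of rows, while Bcl2l11 and Bbc3 sit lowest, above 15.0% and 15.5%.

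Other genes of the family had values on both sides of 0. Of 14 further BCL2 relatives, 13 had a row and 9 a p-value. Of the 9, 3 had positive values and 6 negative, and the median log2 fold change was -0.05. By the adjusted p 0 of the 9 were called, against 0.411% of all rows with a p-value. The 2 with the smallest p-values are BH3-only genes. Hrk, which encodes harakiri, was at -1.18 in the authors' deposited table, or 2.26-fold lower (p = 0.0204, adjusted p = 0.461), with an implied interval of -2.18 to -0.18. Bmf, whose product responds to loss of attachment to a surface, was at -0.51 in the authors' deposited table (1.42-fold lower, p = 0.0440, adjusted p = 0.606). Bik, a BH3-only gene of the endoplasmic reticulum, was at -0.04 in the authors' deposited table. Of the 8 BH3-only genes, 6 had negative values when the rows without a p-value are counted. Among the 6 with a p-value, 4 were negative, as were 59.8% of all rows with one. The survival gene Bcl2l2 was at 0.08 and the effector-like Bok at 0.01 in the authors' deposited table. The 4 Bcl2a1 genes are related copies, and the A1 protein that some of them encode has been linked to mast cell survival after IgE receptor activation. All 4 had values between -0.0093 and -0.00081 with empty p-value cells in the authors' deposited table. Reads of near-identical copies among them cannot be assigned with certainty.

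The 6 caspase and apoptosome genes read here had positive values. Of the 6, 5 had a p-value, with a median log2 fold change of 0.12 against -0.09 for all rows. Among these 5, 0 were called and 0 had an unadjusted p under 0.05. Of all rows with a p-value, 0.411% were called and 7.92% had an unadjusted p under 0.05. Cycs, for the cytochrome c that BAX and BAK release, was at 0.36 in the authors' deposited table (p = 0.117). Apaf1, the scaffold of the apoptosome, was at 0.18 (p = 0.520) and its partner Casp9 at 0.09 (p = 0.640) in the authors' deposited table. Genes of the mitochondrial pore, release factors and DNA degradation had a median of 0.24, with 5 of 7 positive, 0 called and 0 at an unadjusted p under 0.05. The smallest p-values there were those of Ppif, for cyclophilin D, at 0.46 (p = 0.200) and Aifm1, for apoptosis-inducing factor, at 0.28 (p = 0.219) in the authors' deposited table.

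Caspase inhibitors and their antagonists had 0 of 7 called, where 0.411% of all rows with a p-value were called. Birc5, for survivin, which also acts in mitosis, was at 1.18 in the authors' deposited table, or 2.26-fold higher (p = 0.00143), and had the smallest adjusted p of all the lists of the death pathway, 0.124. Birc3, which encodes the inhibitor cIAP2 and is a target of NF-kB, was at -0.61 in the authors' deposited table (1.53-fold lower, p = 0.0148, adjusted p = 0.414). Xiap, the direct inhibitor of caspases, was at 0.15 and its antagonist Diablo at -0.29 in the authors' deposited table. Of 8 genes of death receptors and their signalling, 6 had a p-value and 0 were called (median -0.07). Among them, Tnfrsf10b was at -0.43 (p = 0.145) and the caspase-8 decoy Cflar at -0.19 (p = 0.293) in the authors' deposited table. In the list of BNIP3 and related genes, 0 of 8 were called (median 0.08). Bnip1 was at 0.46 (p = 0.0451, adjusted p = 0.612) and the mitophagy receptor gene Bnip3 at -0.17 (p = 0.466) in the authors' deposited table.

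**Figure D3:**
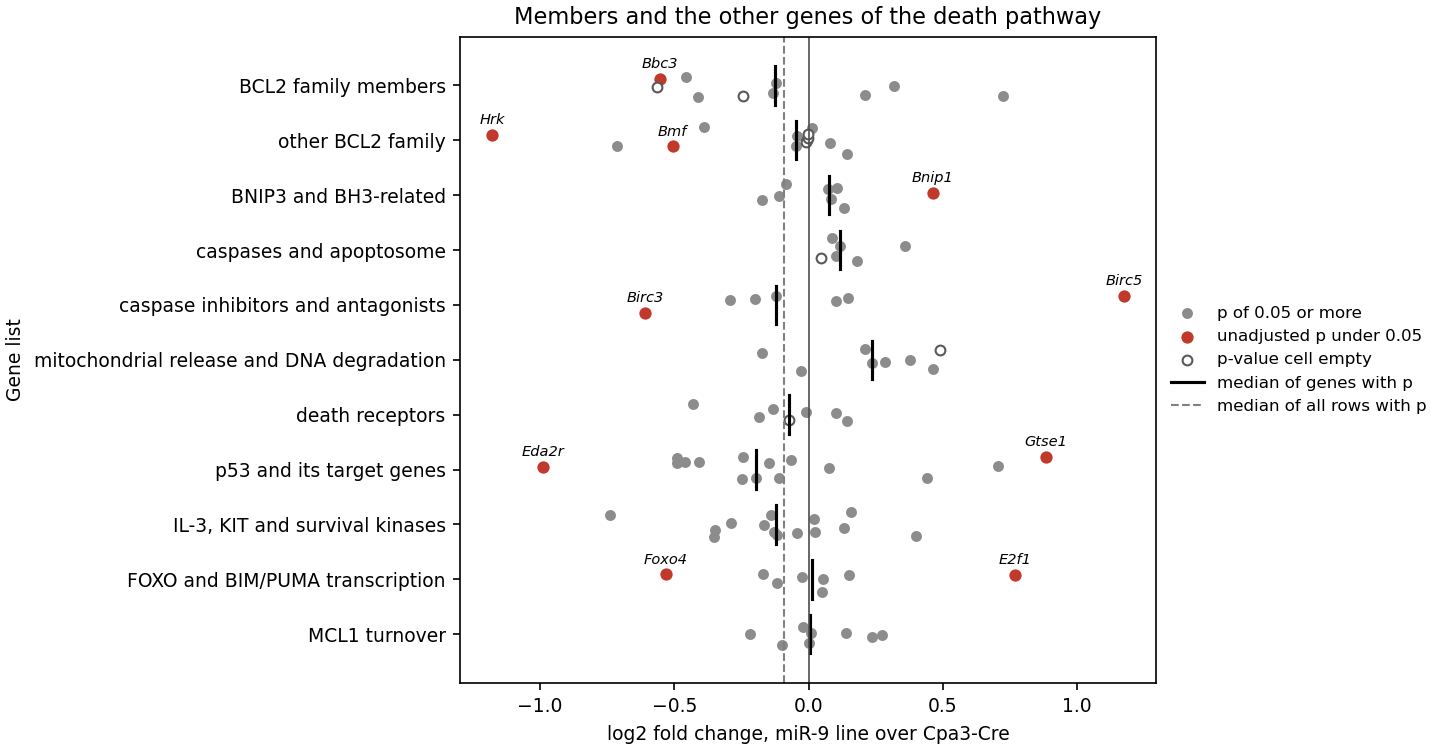
Log2 fold change in the miR-9 line over Cpa3-Cre (x axis) for the BCL2 family members and 10 further gene lists (y axis), 1 point per gene, red where the unadjusted p is under 0.05, open where the p-value cell is empty, with a black bar at each list's median and a dashed line at the median of all rows. Red points stand on both sides of 0, with Hrk at -1.18 and Birc5 at 1.18 farthest out, and none passed the adjusted threshold.

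Genes known to act upstream of the family had 0 calls, where 0.411% of all rows with a p-value were called. Of 15 genes of p53, its relatives Trp63 and Trp73, and its targets, 11 had negative values and 4 positive. Their median log2 fold change was -0.20, with 0 called. Trp53 itself was at 0.44 (p = 0.105), while its target Cdkn1a, for the cell cycle inhibitor p21, was at -0.49 (p = 0.128) in the authors' deposited table. The smallest p-values of that list were those of Gtse1, a G2 phase gene that restrains p53, at 0.88 (p = 0.00837, adjusted p = 0.316) and Eda2r, a receptor gene of the TNF family, at -0.99 (p = 0.0186, adjusted p = 0.452) in the authors' deposited table. The list of FOXO factors and other genes tied to transcription of Bcl2l11 and Bbc3, Trib3 among them, had 4 positive and 4 negative values of 8, with 0 called. Foxo4 was at -0.53 (p = 0.00880, adjusted p = 0.323) and E2f1, a driver of S phase, at 0.77 (p = 0.0101, adjusted p = 0.347) in the authors' deposited table. Foxo3, a known activator of the genes for BIM and PUMA, was at 0.05 in the authors' deposited table (p = 0.780).

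The list of interleukin-3 and KIT receptor genes, survival kinases, Stat5a, Stat5b and Bcl6 had 9 negative and 5 positive values of 14. Its median was -0.12, with 0 called. Pim3 was at -0.74 (p = 0.0995) and Pim1, a kinase gene induced through STAT5, at -0.35 (p = 0.224) in the authors' deposited table. The receptor gene Il3ra, for the interleukin-3 binding chain, was at -0.35 (p = 0.246) and Akt1 at 0.16 (p = 0.501) in the authors' deposited table. Genes that control the turnover of the MCL1 protein spanned -0.22 to 0.27, with Gsk3b at 0.27 (p = 0.193), the ubiquitin ligase subunit gene Fbxw7 at -0.22 (p = 0.268), and 0 of 8 called in the authors' deposited table. Over the 10 lists together, 87 genes had a p-value, 41 positive and 46 negative. By the adjusted p 0 were called, against 0.411% of all rows with a p-value. An unadjusted p under 0.05 was found for 9 of the 87, against 7.92% of all rows with a p-value. Of these 9 genes, 4 were higher and 5 lower.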

How the data were processed

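Total RNA libraries depleted of ribosomal RNA and strand-marked were read as paired 50-base reads, about 70000000 per sample per the labels' protocols; no other depth was used. The submitters' processing notes name the builds GRCm38 and mm10 and the tools HTSeq, STAR, Cuffdiff, DESeq and DESeq2, without versions or roles. Per the labels' design text, the authors used DESeq2 for the statistics with a threshold of 0.0001; it also speaks of a one-way ANOVA. Per the file headers, the authors deposited for each gene a log2 fold change, a linear fold with its sign and an unadjusted p-value. Shrinkage of the log2 values is not stated; the standard errors derived from them reached at most 0.54 over the table. The linear fold matched the log2 value to within 0.001 in every row. The 5 columns of values per library were not used.

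Benjamini-Hochberg adjustment (statsmodels 0.14.6) covered every row with a p-value, and an adjusted p under 0.05 was called. Standard errors and 95% intervals were derived as described above with scipy 1.17.1. Protein-coding rows (15703 with a p-value) were matched by symbol and overlapping position to GENCODE M21. Only the adjustment and the recovery of a standard error from a p-value were run on simulated data. That run took the Wald test as given, so it cannot check that assumption. The matching to GENCODE, the seed search and the overlaps were not part of it. Members and lists were chosen with earlier results of these data known. Named were all members, every called gene of the other lists, markers included, and the 2 smallest p-values of each list that has any, with some list genes not reported here; other list genes are examples chosen after their values were seen. Python 3.11.15, numpy 2.4.6, pandas 2.3.3 and matplotlib 3.10.9 were used.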

Additional observations from a re-analysis of the deposited data

How the results depend on the processing

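The count of 0 called members held with adjustment over protein-coding genes alone, at an adjusted p under 0.10 and at an unadjusted p under 0.0001; it was 1 (Bbc3) at an unadjusted p under 0.05. The other lists gave 0 under the same settings and 9 of 87 at an unadjusted p under 0.05, against 7.92% of all rows with a p-value. Over the whole table, 99 genes were called, 116 with protein-coding genes alone (77 higher, 39 lower, against 59 and 40), 72 at 0.0001, 233 at an adjusted p under 0.10 and 1906 at an unadjusted p under 0.05. Centring on the median of all rows (-0.09) or of protein-coding rows (-0.09) changed the sign of 0 members. No paired analysis was possible because the results come from the authors' deposited comparison, and the values per library, which carry no replicate number, were not used. For the same reason leaving out replicates, DESeq2 against edgeR and filters on low counts were not run. Depth per gene is unknown.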
